A study of Mus musculus with 2 samples.

Results

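Mir144 and Mir451a are 2 microRNA genes of red blood cells that lie side by side on mouse chromosome 11. They were taken by gene symbol (GENCODE M21) from the 1973 microRNA genes counted in each library, so they are 2 of 1973 genes. The libraries come from 1 group of newborn mice (postnatal day 0, strain B6NCrl, sex not collected). Both libraries were made by microRNA-seq, the sequencing of adapter-ligated small RNAs (labelled size below 30 nt). One holds the hindbrain of the animal that the labels name pup 3, and the other that of pup 1. No treatment or genotype was compared, and the labels do not say whether blood was flushed from the tissue. The genes were chosen by name with their same-strand counts in these same libraries, and the opposite differences between the pups, already known. Those values are therefore described here and not tested.

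A microRNA is cut from a hairpin in a longer primary transcript by the nuclear enzyme Drosha, and most hairpins are then cut by Dicer, which frees a duplex of the hairpin's arms. Mir144 and Mir451a are made from a shared primary transcript that the factor GATA1 switches on in red blood cell precursors. Pre-miR-144 follows the Dicer route, whereas pre-miR-451 has a stem too short for Dicer and is loaded directly into Ago2, which cuts its 3′ arm before the end is trimmed. Mature red cells keep miR-451 at high levels, and its loss in mice weakens red cell formation under stress.

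The sequences are printed because the place of the mature microRNA in each hairpin goes with its route of processing. They are from RefSeq, where both members were found by symbol (build GRCm38.p6, a patch release of mm10), and in the mature microRNAs the seed, bases 2 to 8, is in capitals. In the precursor lines the capitals mark the mature microRNAs.
miR-144-5p: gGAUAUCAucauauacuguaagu
miR-144-3p: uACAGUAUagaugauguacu
miR-451a: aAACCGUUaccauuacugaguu
Mir144 precursor: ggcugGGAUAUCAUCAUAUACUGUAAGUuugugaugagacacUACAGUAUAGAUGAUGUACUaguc
Mir451a precursor: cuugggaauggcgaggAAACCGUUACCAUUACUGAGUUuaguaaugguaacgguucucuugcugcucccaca

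Mir144 (ENSMUSG00000065401.1) occupies chr11:78073005-78073070 and Mir451a (ENSMUSG00000070065.1) chr11:78073170-78073241, both on the plus strand of mm10, with 99 nt between them. GENCODE M21 places neither in a host gene. The nearest other gene that is not a microRNA is Eral1, which encodes a mitochondrial RNA-binding GTPase and lies 134 nt beyond Mir451a on the other strand. Mir451b is annotated on the minus strand over the same bases as Mir451a and has no row of its own in the tables.

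Secondary structure was predicted from the precursors with RNAfold. The 66-nt Mir144 precursor folded into 27 base pairs (-28.6 kcal/mol) around a loop of 6 nt. Its mature sequences sit on opposite arms, with 20 of the 23 bases of miR-144-5p and 19 of the 20 bases of miR-144-3p paired and none in the terminal loop. The 72-nt Mir451a precursor folded into 30 pairs (-43.3 kcal/mol) around a loop of 4 nt. Of these 30 pairs, 13 lay at the base of the stem, before the first base of miR-451a. In this precursor miR-451a covers 18 bases of the 5′ arm and all 4 bases of the loop, so that it runs over the end of the stem. Counts are per precursor, and reads of miR-144-5p and miR-144-3p cannot be told apart.

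**Figure D1:**
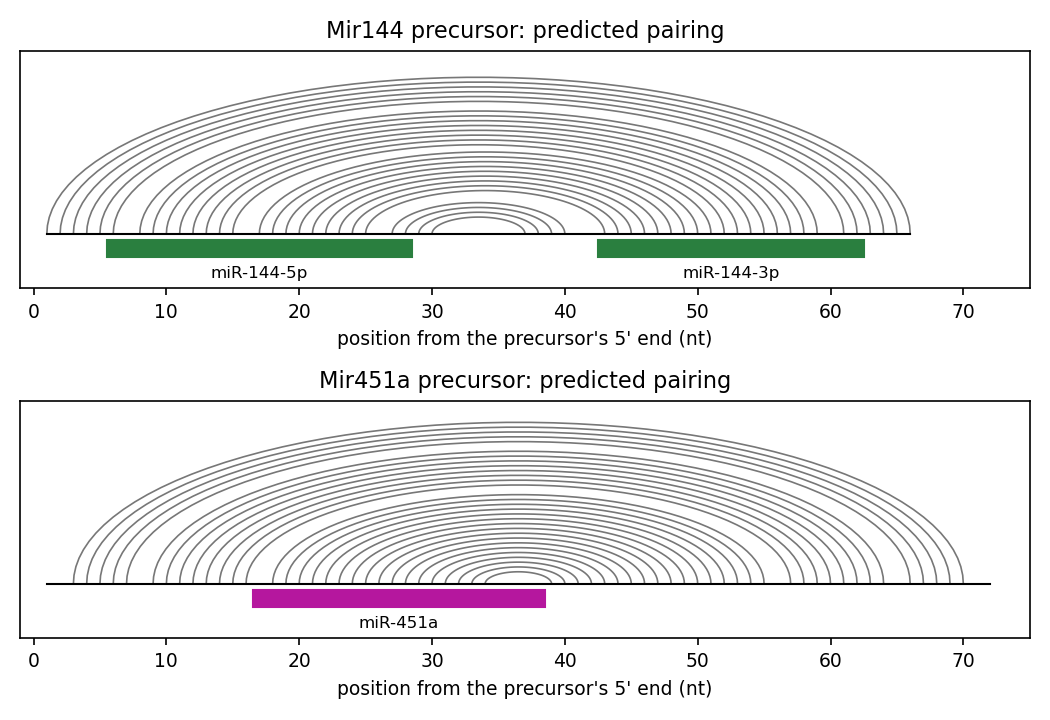
Predicted base pairs of both precursors, drawn as arcs over the position from the 5′ end in nt, with the mature microRNAs as coloured bars. The Mir144 bars lie on separate arms, whereas the Mir451a bar reaches from the 5′ arm through the 4-nt loop.

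The libraries held 3012320 counts (pup 3) and 2459757 counts (pup 1) on the strand of a microRNA gene, and levels are given as CPM, counts scaled to these totals. With 1 library from each pup, the exact 95% binomial intervals given below (Clopper-Pearson) cover counting error only. Reads carry no molecular identifiers, so copies of a molecule count as separate reads and these intervals can be too narrow. By the inferred layout of the tables, reads that map to several loci were not counted, at 42.0% (pup 3) and 40.2% (pup 1) of all reads. In a RefSeq table of 1005 hairpins, neither precursor shares a stretch of 20 nt with a hairpin outside its own locus. CPM of different microRNAs compare reads and not molecules, since small RNAs differ in how readily they are ligated, and reads of a mature microRNA are not scaled by length.

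Mir144 had 202 counts in pup 3 and 42 counts in pup 1. These correspond to 67.1 CPM in pup 3 (interval 58.1 to 77.0) and 17.1 CPM in pup 1 (interval 12.3 to 23.1). The level was thus higher in pup 3. Over both pups Mir144 averaged 42.1 ± 35.3 CPM (SD, n = 2), and it ranked 265 among 699 genes with any count.

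Mir451a had 113 counts in pup 3 and 329 counts in pup 1. These correspond to 37.5 CPM in pup 3 (interval 30.9 to 45.1) and 134 CPM in pup 1 (interval 120 to 149). Here the order of the pups was the opposite of that for Mir144. Over both pups Mir451a averaged 85.6 ± 68.1 CPM (SD, n = 2) and ranked 236 among the 699 genes. In both genes the SD between pups came to about the size of the mean, with coefficients of variation of 84.0% for Mir144 and 79.5% for Mir451a, so that the order of their mean levels is not larger than the spread between the pups.

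The gene with more counts therefore switched between the libraries. Mir451a took 35.9% of the counts of the pair in pup 3 (113 of 315, interval 30.6% to 41.4%) and 88.7% in pup 1 (329 of 371, interval 85.0% to 91.7%). In pup 3 Mir144 had 1.79 counts for each count of Mir451a, and in pup 1 Mir451a had 7.83 counts for each count of Mir144. The log2 ratio of Mir451a to Mir144, formed within each library and so free of any scaling between libraries, was lower in pup 3 than in pup 1 by a log2 difference of -3.79, a 13.8-fold change (exact counting interval -4.41 to -3.21, 0.5 counts added to each count for the value and none for the interval). The sum of both genes moved less, as a sum of opposite changes must, at 105 CPM in pup 3 and 151 CPM in pup 1 (mean 128 ± 32.7, SD, n = 2). Scaled as for the folds below, its log2 fold of pup 3 over pup 1 was -0.58 (counting interval -0.80 to -0.36). For the level of any 1 gene in a whole tissue, a different number of red cells and a different amount of its RNA in each red cell cannot be told apart.

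**Figure D2:**
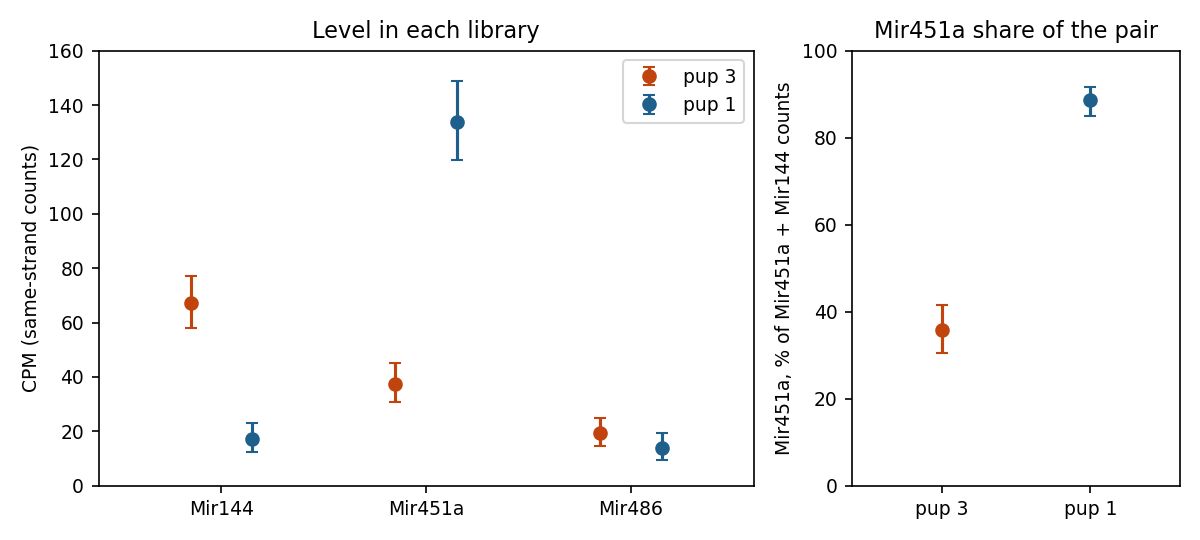
Left, CPM of Mir144, Mir451a and a further red cell microRNA, Mir486, in pup 3 and pup 1; right, the percent of the summed Mir451a and Mir144 counts that came from Mir451a. Bars are exact 95% binomial intervals for counting error. Mir144 is higher and Mir451a lower in pup 3, with 35.9% of the pair from Mir451a in pup 3 and 88.7% in pup 1.

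For the folds, library totals were scaled with TMM factors (edgeR), 0.5 counts were added to each count, and the 395 genes that reached 10 counts in pup 3 or pup 1 were kept. Both members passed this filter. The log2 fold of pup 3 over pup 1 was 1.91 for Mir144 (counting interval 1.44 to 2.44) and -1.88 for Mir451a (interval -2.21 to -1.57). Both members were thus past 2-fold, as were 5.82% of the 395 genes (2.28% past it in the direction of Mir144 and 3.54% in that of Mir451a). With 1 library on each side there is no test of these folds, and this contrast was known when the genes were chosen.

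The median absolute log2 fold of the 395 genes was 0.22, and 23 of them were past 2-fold. Of the 287 genes with at least 100 counts summed over both libraries, 6 were past 2-fold, and Mir144 had the highest and Mir451a the lowest fold. The next highest were Mir32 (0.80) and Mir33 (0.78), and the next lowest were Mir103-2 (-1.29) and Mir702 (-1.23). Over all 395 genes Mir144 ranked 3 from the top, below Mir3094 (2.20) and Mir141 (1.98). Mir451a ranked 2 from the bottom, next to Mir1982 (-1.93). Genes with folds nearest to those of the members, a likeness over 2 libraries only, all had few counts. Nearest to Mir144 were Mir141 (12 counts in pup 3 and 2 in pup 1), Mir3094 (20 and 3) and Mir6900 (18 and 5). Nearest to Mir451a were Mir1982 (4 counts in pup 3 and 13 in pup 1), Mir3105 (8 and 21) and Mir3572 (5 and 12). In mean level, Mir144 stood between Mir199b, with 41.5 CPM in pup 3 and 43.5 CPM in pup 1, and Mir702, with 24.6 and 55.7 CPM. Mir5099 and Mir670, just above and below Mir451a, had log2 folds of 0.02 and -0.21.

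**Figure D3:**
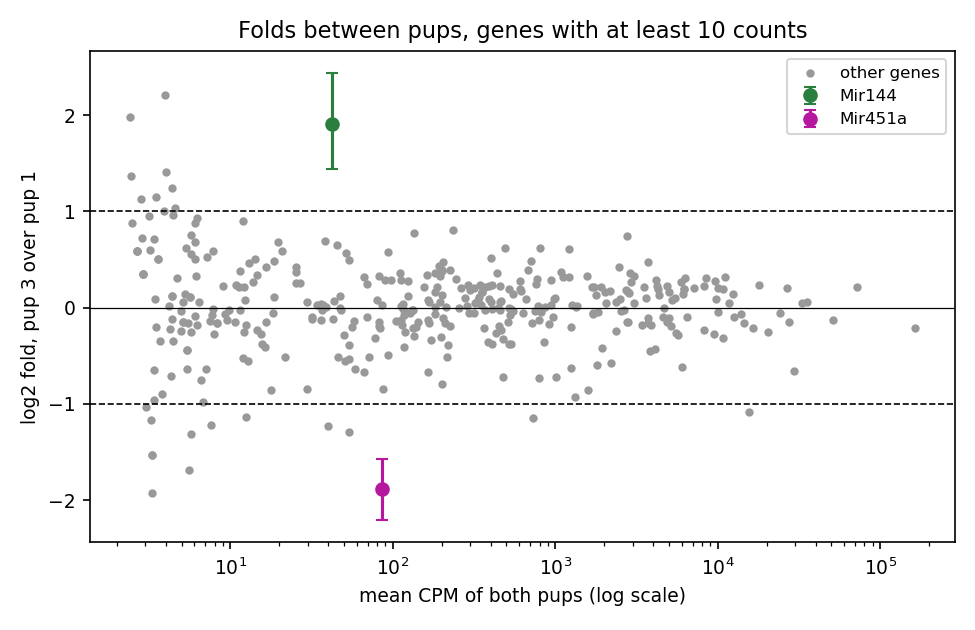
Log2 fold of pup 3 over pup 1 against mean CPM (log scale) for the 395 genes that reached 10 counts in pup 3 or pup 1. Dashed lines mark 2-fold, and bars on the members are exact 95% counting intervals. Mir144 (1.91) and Mir451a (-1.88) lie outside the dashed lines at a level where most other genes lie within them.

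Genes close together on a strand are often cut from a shared transcript, and their folds can be set against each other as for Mir144 and Mir451a. Among the 395 genes, 116 pairs lay next to each other within 10 kb on the same strand. The absolute difference of log2 folds had a median of 0.27, and in 9 pairs it was above 1. For Mir451a and Mir144 it was 3.79, and none of the other 115 pairs reached that value. The next were Mir141 with Mir200c at 1.29, Mir362 with Mir188 at 1.16 and Mir667 with Mir376c at 1.15. Mir141 rests on 12 counts in pup 3 and 2 in pup 1. The pair of red cell genes was the only pair of these 116 in which the members were past 2-fold in opposite directions. These pairs overlap in genes and are given as a description.

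**Figure D4:**
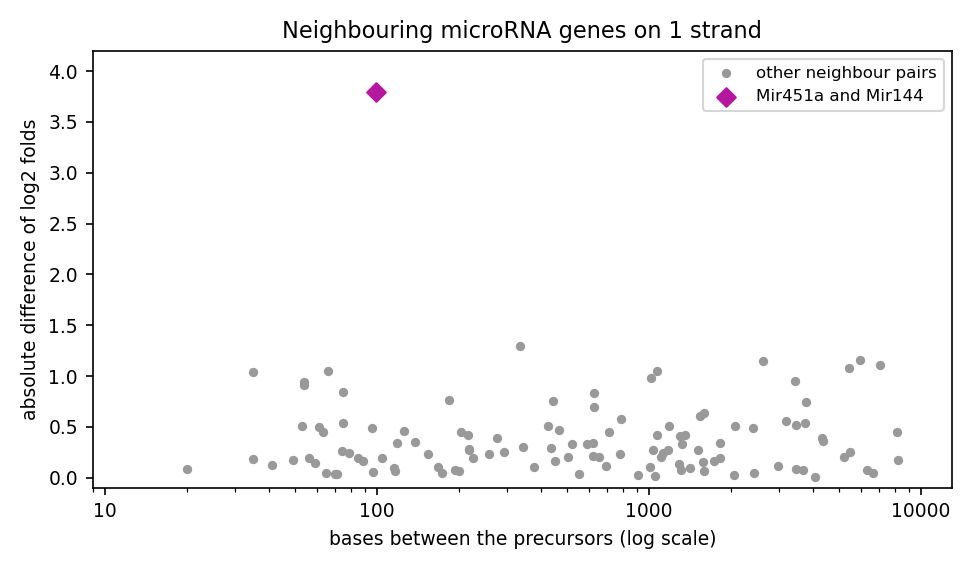
Absolute difference of the log2 folds (pup 3 over pup 1) of 2 neighbouring genes against the number of bases between their precursors (log scale), for 116 pairs within 10 kb on the same strand. Mir451a and Mir144 (99 nt apart) stand at 3.79, and the other pairs reach at most 1.29.

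The further red cell microRNA with a row was Mir486, which lies in the erythrocyte ankyrin gene region and acts in late red cell maturation. It had 58 counts in pup 3 and 34 counts in pup 1, or 19.3 and 13.8 CPM. Its log2 fold of 0.42 had a counting interval that includes 0 (-0.21 to 1.08), so no difference was detectable from these counts. Sequence shared with other loci was checked for Mir144 and Mir451a only, and reads that map to several loci were not counted. The Mir486 counts may therefore leave out part of its reads. The red cell list of Mir144, Mir451a and Mir486 held 0.0124% of counts in pup 3 (interval 0.0112% to 0.0137%) and 0.0165% in pup 1 (interval 0.0149% to 0.0181%). Mir144 and Mir451a together made up 84.5% of this list in pup 3 and 91.6% in pup 1. Of its 3 genes with a row, Mir144 was past 2-fold higher and Mir451a past 2-fold lower, as was known when they were chosen. Of all 395 genes, 2.28% were past 2-fold higher and 3.54% past 2-fold lower. With Mir144 and Mir451a at opposite ends, the list's median log2 fold of 0.42 was that of Mir486 alone (0.02 over all 395 genes). It is no shift of the list, whose summed counts had a log2 fold of -0.46.

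Other microRNAs tied to red cell maturation had folds closer to 0. In a list of microRNAs of GATA1-driven or late maturation, the 5 genes besides Mir144 and Mir451a had log2 folds between -0.03 (Mir210) and 0.47 (Mir27a). Mir23a reached 9038 CPM in pup 3, against 7452 CPM in pup 1. It is found in many other cell types, as are Mir24-2, Mir27a and Mir210. In the whole list of 7 genes, Mir144 and Mir451a were the 2 past 2-fold, beside 5.82% of all 395 genes. Their folds were known when they were chosen, so this count is no result about the list. With these 2 genes at opposite ends, the median log2 fold of 0.27 was that of Mir24-2, against 0.02 over all 395. The 5 microRNAs known, largely from human cultures, to decline as red cell precursors mature (Mir150, Mir155, Mir221, Mir222 and Mir223) had none past 2-fold, where 5.82% of all 395 genes were, so that this count does not set them apart from other genes. Their median log2 fold was -0.06, with a summed level of 1249 CPM in pup 3 and 1243 CPM in pup 1. Mir150, Mir155 and Mir223 are also in the leukocyte and microglia list below, so this sum is not particular to red cell precursors.

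Markers of other cell types of the tissue and its blood, where they reached 10 counts, also had folds closer to 0 than the members. In the leukocyte and microglia list, the 5 genes with at least 10 counts had log2 folds between -0.35 and 0.39, and they summed to 686 CPM in pup 3 and 615 CPM in pup 1. Mir223, of myeloid cells, stood at 229 CPM in pup 3, against 169 CPM in pup 1 (log2 fold 0.39). Mir155, of activated lymphocytes and macrophages, had a log2 fold of -0.29. Mir142b had no same-strand count in either library. Its opposite-strand reads, at 391 CPM in pup 3 and 241 CPM in pup 1, are outside this range and these sums. The endothelial Mir126a stood at 36931 CPM in pup 3, against 34216 CPM in pup 1, and the smooth muscle and pericyte genes Mir143 and Mir145a had log2 folds of 0.31 and -0.10. Mir122, of liver, an organ that forms blood before birth, stood at 45.5 CPM in pup 3, against 41.9 CPM in pup 1. Neuronal microRNAs, which the label hindbrain calls for, were present, with Mir137 at 13229 CPM in pup 3, against 11588 CPM in pup 1. In the neuronal list of 7 genes, log2 folds of the 5 genes with at least 10 counts ran from 0.14 to 0.74. The 3 genes for the neuronal miR-124 each had at most 17 counts in a library. By the inferred layout, reads that map to several loci were not counted, so these counts need not give the level of miR-124. The part of blood content in the opposite folds of Mir144 and Mir451a was not tested.

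**Figure D5:**
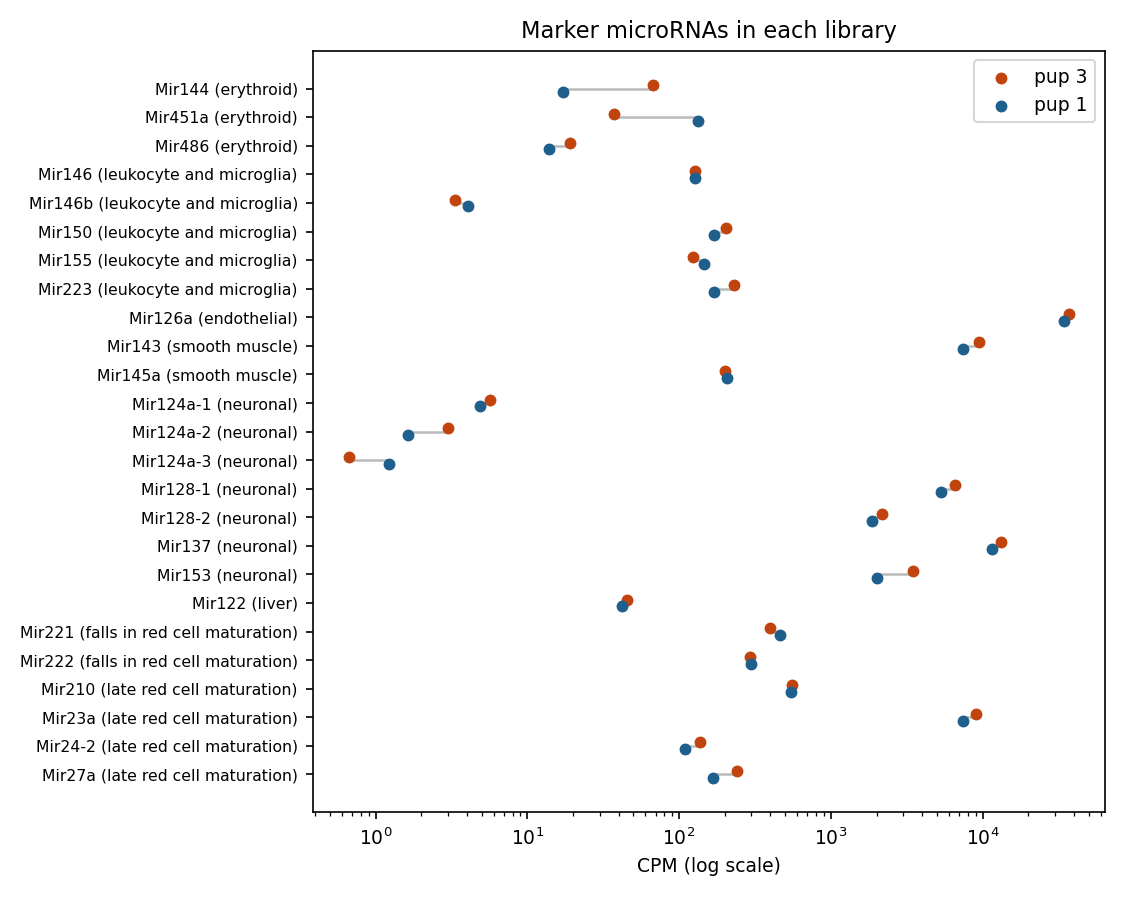
CPM (log scale) of marker microRNAs with any count in pup 3 and pup 1, 1 row for each gene, with its list in brackets. The dots of Mir144 and Mir451a are far apart and in opposite order, while Mir486 and most other markers have dots close together.

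Mir451a also has a partner on the opposite strand. Mir451b is read from the other strand of the same bases, and its mature sequence follows with the seed in capitals.
miR-451b: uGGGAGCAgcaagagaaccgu
The miR-451a sequence has an identical run of 16 nt on the minus strand of its own precursor and needs 4 mismatches to be placed there in full. Counts on that strand were 0 in both pups, which allows up to 0.996 CPM in pup 3 and 1.22 CPM in pup 1 (3 counts). Mir144 also had no opposite-strand count in either pup.

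Seeds set which messenger RNAs a microRNA can bind. Among 1738 mature microRNAs in the RefSeq table, none encoded by another gene had bases 2 to 8 of miR-144-5p, miR-144-3p or miR-451a. Bases 2 to 7 of miR-144-3p also occur in miR-101a-3p, shown with bases 2 to 8 in capitals.
miR-101a-3p: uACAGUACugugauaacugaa
Mir101a stood at 983 CPM in pup 3, against 617 CPM in pup 1 (mean 800 ± 259, SD, n = 2), so it had more reads than Mir144 in both pups. These are reads per precursor and do not compare molecules of miR-101a-3p and miR-144-3p. Its log2 fold was 0.62, in the direction of Mir144 and smaller. No relative by bases 2 to 7 was found for miR-144-5p or miR-451a.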

How the data were processed

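MicroRNA-seq of total RNA from the hindbrains of 2 newborn mice was analysed. The authors deposited raw read counts per microRNA gene, with mm10 and annotation M4 named in the listings beside them. Which aligner and counter were used is not given in the sources used here. A table has 3 count columns and 4 rows that name no gene, which held 58.0% of reads in pup 3 and 57.7% in pup 1 and were left out of totals. The layout was inferred: the first column is the sum of the others, and the second was taken as the strand of the gene.

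Members, lists and comparisons were chosen with earlier results of these data known. Symbols and coordinates came from GENCODE M21, also mm10 (1894 of 1973 identifiers matched). CPM used same-strand totals. Folds used TMM factors over genes with any count (edgeR 4.0.16, R 4.3.3), 0.5 added counts and genes that reached 10 counts in a library. With 1 library a side, edgeR's quasi-likelihood test was not possible. Intervals are exact (95%, scipy 1.17.1). Folds and intervals were checked on simulated counts with counting error only, and pairs on a small made-up set of genes. The check did not cover TMM scaling or copied reads. Structures came from RNAfold 2.7.2. Alternatives were other scalings (DESeq2 1.42.0, plain totals), strands, filters and added counts. Genes besides the members were named by position within 10 kb, list, seed, nearest fold or level, and extreme folds.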

Additional observations from a re-analysis of the deposited data

Results flagged for a closer look

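Opposite-strand reads are outside the same-strand counts on which the levels and folds above rest. At 1 gene of the marker lists, the leukocyte gene Mir142b, they exceeded the 3 counts that a count of 0 allows, and the same-strand counts, in both libraries. Mir142b had 1178 opposite-strand counts in pup 3 and 592 in pup 1, with 0 on its own strand. GENCODE M21 annotates Mir142 on that other strand, and it has no row in the tables. In CPM of the same-strand totals these reads came to 391 in pup 3 and 241 in pup 1. At the neuronal gene Mir124a-3, opposite-strand counts were 4 in pup 3 and 0 in pup 1, past that limit in pup 3 alone.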

How the results depend on the processing

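Mir144 and Mir451a kept the direction of their folds under each of the 5 alternatives run for them. With TMM factors from genes with at least 10 counts, chosen after seeing the data, the log2 folds were 1.83 for Mir144 and -1.96 for Mir451a. With plain totals they were 1.96 and -1.83, and the other alternatives lay between these values. The log2 difference of their ratio was -3.70 with 3 counts added. Over all reads of the tables as the denominator, the summed level was 53.9 CPM and the red cell list 0.00608%, because 57.7% to 58.0% of reads name no gene. The number of genes past 2-fold was 6 of 300 with at least 30 counts in both libraries and 209 of 699 with no filter on low counts. With no filter, 2 neighbour pairs reached the difference of Mir451a and Mir144, the second being Mir5134 and Mir6965 with at most 4 counts in a library. Without 1 pup or the other, the summed level ranged from 105 to 151 CPM, Mir144 from 17.1 to 67.1 CPM, Mir451a from 37.5 to 134 CPM and the list from 0.0124% to 0.0165%. No fold is left without either pup. No paired analysis was possible because there is 1 group. Low counts limit Mir486 and the genes nearest in fold, which had at most 58 counts.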
